A study of Mus musculus with 8 samples.

Results

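The NR4A family, a group of early targets of the transcription factor CREB and the core of the CREB machinery were followed as 10 genes, chosen by symbol from 25230 in the count table. They are Nr4a1, Nr4a2, Nr4a3, Crem, Fosl2, Sik1, Areg, Crtc2, Crtc3 and Creb1, and each had a row and counts in all 8 libraries. The libraries were strand-specific mRNA from intraepithelial lymphocytes (IELs), the T cells of the gut lining, of C57BL/6J mice. The 4 Ex4 mice were injected with 35 µg of anti-CD3, an antibody that stimulates T cells by way of their antigen receptor, and with 10 nmol/kg of exendin-4, a peptide that activates the receptor for glucagon-like peptide 1 (GLP-1). The 4 PBS mice received the same antibody with PBS, so every library comes from an activated gut and none from an unstimulated one. Cells were taken 3 hours later and isolated by Percoll separation and a CD45 sort, which collects leukocytes in general rather than IELs in particular. The comparison asks how exendin-4 altered activated IELs.

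The GLP-1 receptor couples to the stimulatory G protein, which raises cAMP and thereby activates protein kinase A. This kinase phosphorylates CREB on DNA elements called CREs, while cAMP also frees the CRTC coactivators, which salt-inducible kinases otherwise hold in the cytoplasm. Early targets include the NR4A orphan nuclear receptors and, as brakes on the same pathway, Sik1 and the short CREM repressor ICER. In T cells the NR4A genes are also induced through the T cell receptor alone, so that in cells given an anti-CD3 antibody their level reflects more than cAMP.

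The regulatory sequence upstream of these genes was read from RefSeq (GRCm38.p6), in windows from 250 bases before to 50 bases after the transcription start. An entry was used for 7 of the 10 genes. The 4 windows that hold CRE letters are shown here because they show how these letters are arranged in the genes whose levels follow. Each is written 5′ to 3′ on the gene's strand, and capitals mark the CRE core, TGACG or its reverse complement CGTCA.
Nr4a1, chr15:101266596-101266895, plus strand: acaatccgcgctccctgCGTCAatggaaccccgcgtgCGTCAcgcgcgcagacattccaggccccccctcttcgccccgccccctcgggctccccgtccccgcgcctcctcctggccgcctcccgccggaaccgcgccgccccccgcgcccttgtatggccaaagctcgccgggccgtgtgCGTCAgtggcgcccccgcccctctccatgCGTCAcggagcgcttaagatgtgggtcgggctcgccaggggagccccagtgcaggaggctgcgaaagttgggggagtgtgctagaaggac
Nr4a2, chr2:57123954-57124253, minus strand: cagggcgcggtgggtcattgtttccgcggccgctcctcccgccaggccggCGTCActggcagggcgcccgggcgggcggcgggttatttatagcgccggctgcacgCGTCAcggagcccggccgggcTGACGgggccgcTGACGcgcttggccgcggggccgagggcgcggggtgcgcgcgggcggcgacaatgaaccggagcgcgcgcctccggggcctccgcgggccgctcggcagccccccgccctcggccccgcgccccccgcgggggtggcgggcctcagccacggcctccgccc
Nr4a3, chr4:48045055-48045354, plus strand: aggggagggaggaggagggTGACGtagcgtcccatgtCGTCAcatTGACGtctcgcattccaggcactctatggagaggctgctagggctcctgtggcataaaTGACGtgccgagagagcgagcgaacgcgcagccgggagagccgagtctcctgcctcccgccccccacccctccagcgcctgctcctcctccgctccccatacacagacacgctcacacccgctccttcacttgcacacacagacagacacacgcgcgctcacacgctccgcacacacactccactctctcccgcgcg
Areg, chr5:91139349-91139648, plus strand: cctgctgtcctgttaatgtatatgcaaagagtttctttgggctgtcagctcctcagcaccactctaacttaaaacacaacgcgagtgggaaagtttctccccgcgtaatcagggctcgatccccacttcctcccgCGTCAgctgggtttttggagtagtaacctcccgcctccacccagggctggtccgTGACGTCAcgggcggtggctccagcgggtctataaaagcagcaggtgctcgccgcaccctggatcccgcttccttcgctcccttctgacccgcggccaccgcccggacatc

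The CRE core occurred 4 times in each of the 3 NR4A windows and 3 times in that of Areg. Of all 32851 promoter windows of this length, 20.8% held at least 1 core on either strand and 1.03% held 3 or more. Areg carried the palindromic full element TGACGTCA, 61 bases before the start, in which 2 of its 3 cores overlap, and this element was present in 1.79% of all windows. In Nr4a1 all 4 cores lay on the opposite strand, with the nearest 40 bases before the start. Nr4a2 had a pair on each strand, and Nr4a3 had 3 on its own strand and 1 on the other. The windows of Fosl2, Creb1 and Crtc3 held 0 cores, and those of all 7 genes held 0 matches to the NR4A monomer element AAAGGTCA or to the AP-1 letters TGAGTCA on either strand. A match describes letters and not a bound site, and some genes have other start sites outside these windows.

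**Figure D1:**
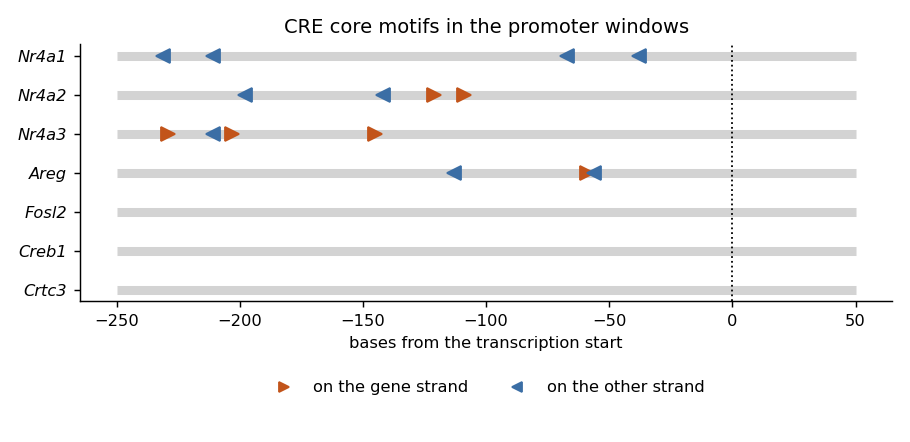
Position of the CRE core letters (horizontal axis, bases from the transcription start, dotted line) in the promoter windows of 7 genes (rows). Arrowheads to the right mark TGACG on the gene's strand and those to the left CGTCA. The NR4A genes have 4 cores each, Areg has 3 and the other genes have 0.

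Total counts ran from 13386889 to 31843413 in Ex4 libraries and from 18266449 to 25333644 in PBS libraries. The IEL and T cell markers were all present, with summed levels of 69900 to 83700 CPM (counts scaled to a common library size, with TMM factors) in Ex4 and 52700 to 78700 CPM in PBS libraries. Most of this sum was the granzyme genes Gzma and Gzmb, so it says little about the other markers. Their means were 47150 and 19410 CPM in Ex4 and 40770 and 19240 CPM in PBS libraries. In PBS 1, the library with the lowest sum, they were at 30610 and 13600 CPM. Markers of other leukocytes were present as well. B cell markers summed to 242 to 2130 CPM in Ex4 and 814 to 1430 CPM in PBS libraries, and myeloid markers to 69.1 to 108 CPM in Ex4 and 59.2 to 138 CPM in PBS libraries. In each list of IEL, B cell, myeloid and mast cell markers 0 genes passed the edgeR test, which 0.0136% of all genes passed. DESeq2 called the IEL marker Cd8a lower in Ex4 libraries, as given below. In a mixed sort, fewer cells of a type and less RNA per cell cannot be told apart. Library PBS 1 often stood apart: it was the lowest of the 8 libraries for 7 of the 10 genes described here, against 17.6% of all 14691 genes tested. For Nr4a2 and Creb1 the next library was close, at 161.0 against 159.8 CPM and 71.6 against 70.3 CPM. The trait was not particular to these genes. PBS 1 was also the lowest for 7 of 13 T cell receptor early genes, Nr4a1 included. Of the 12 IEL and T cell markers it was the lowest for 5 and the highest for 3. PBS 1 also had the highest level of 6 of 6 mast cell markers and of 4 of 8 myeloid markers, against 15.9% of all genes. The mast cell markers summed to 204.2 CPM in PBS 1, against 59.9 to 74.0 CPM in the other PBS libraries and 45.7 to 80.1 CPM in Ex4 libraries. Most of the sum in PBS 1 came from a single gene, Kit, at 145.8 CPM. The part of these markers in the results was not tested.

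Nr4a1, Crem, Fosl2 and Areg had fitted levels 1.40 to 2.03 times as high in Ex4 as in PBS libraries, but none of the 10 genes passed the edgeR quasi-likelihood test at an adjusted p below 0.05 (Benjamini-Hochberg over all genes). That threshold was passed by 0.0136% of all genes, namely Flna and Cd1d1, which are outside the set. At an unadjusted p below 0.05 edgeR counted 0 of the 10 genes, against 3.71% of all genes as higher and 3.90% as lower, whereas DESeq2 counted 2, against 6.88% of all genes with a p, and limma-voom 1, against 7.89%. DESeq2 passed 0.533% of all genes after adjustment, with 0 of the 10 among them, and limma-voom passed 0 of the 10. Ex4 and PBS libraries overlapped for all 10 genes, while 2.29% of all genes had every Ex4 library above every PBS library and 2.66% had the opposite. The median log2 fold change of the 10 genes was 0.22, with 6 of 10 above 0, beside a median of 0.02 and 52.9% above 0 over all genes tested. The median of the 10 genes was 0.09 without PBS 1, 0.11 without Ex4 3 or without PBS 3, and 0.45 without PBS 4, and the count called was 0 each time.

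**Figure D2:**
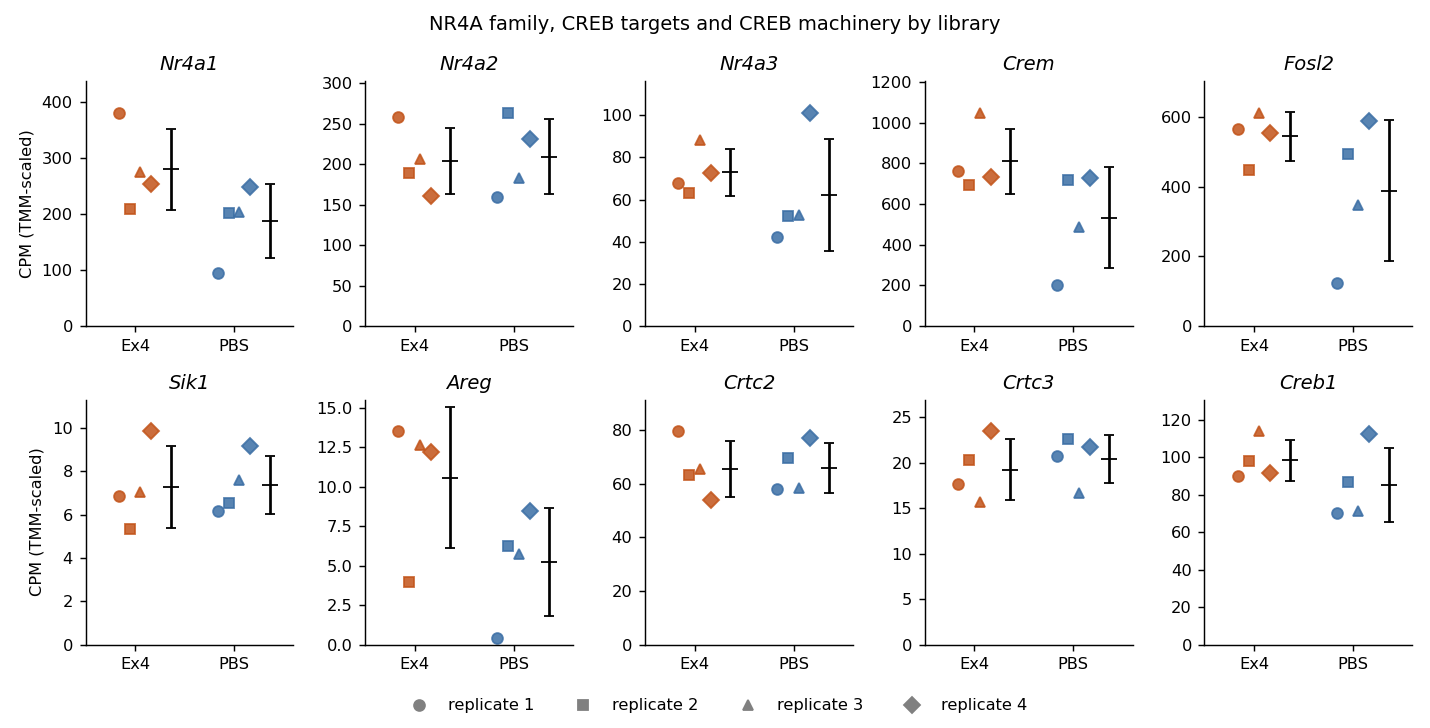
Level of each gene (vertical axis, TMM-scaled CPM from 0) in the 4 Ex4 and 4 PBS libraries, with marker shape for the replicate number and bars for mean ± SD. The groups overlap in every panel, and PBS 1 (circle) is the lowest PBS library of Nr4a1, Crem, Fosl2 and Areg.

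Nr4a1 encodes NUR77, an orphan nuclear receptor whose induction reports the strength of T cell receptor signals, and it lies on chromosome 15 from 101254269 to 101274795 (GRCm38, as are all gene positions here). Its level was 380.5, 209.3, 275.1 and 253.5 CPM in Ex4 1 to 4, against 94.2, 201.4, 204.5 and 249.0 CPM in PBS 1 to 4. The highest value was that of Ex4 1 and the lowest that of PBS 1, while the 6 libraries between them lay from 201.4 to 275.1 CPM and mixed. The log2 fold change was 0.58 (SE 0.27, 95% interval -0.01 to 1.17), a 1.49-fold higher mean with all 4 Ex4 libraries above the PBS mean (edgeR adjusted p = 0.658). Without PBS 1 it was 0.35, and without Ex4 1 it was 0.38. Nr4a1 had the smallest p of the 10 genes, at rank 1188 of 14691.

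Nr4a2, which encodes the related receptor NURR1 known for its role in dopamine neurons, lies on chromosome 2 from 57106830 to 57124003. It was at 257.8, 189.4, 206.5 and 161.0 CPM in Ex4 1 to 4 and at 159.8, 263.3, 183.1 and 231.3 CPM in PBS 1 to 4. The groups covered almost the same range, and the highest library was a PBS one. Its log2 fold change was -0.04 (SE 0.18, edgeR adjusted p = 0.979), and the 95% interval in fold terms ran from 0.749 to 1.26. Nr4a3, which encodes NOR1 and acts redundantly with NUR77 in T cells, lies on chromosome 4 from 48045153 to 48086447. Its level was 67.9, 62.9, 88.4 and 72.7 CPM in Ex4 1 to 4, against 42.4, 52.3, 52.9 and 101.1 CPM in PBS 1 to 4. Here 3 PBS libraries lay below all Ex4 libraries and PBS 4 above all of them, and the log2 fold change was 0.23 (SE 0.23, edgeR adjusted p = 0.877). With 1 library left out it ran from 0.08 without PBS 1 to 0.55 without PBS 4.

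Crem encodes both activators and repressors of CRE-driven transcription, among them ICER, which is made from an internal promoter that CREB itself drives. Counts are per gene, so ICER was not separated from longer forms, and the gene (chromosome 18, 3266048 to 3337748) overlaps the predicted transcript Gm6225 on the opposite strand. Crem was at 760.4, 695.5, 1047 and 733.8 CPM in Ex4 1 to 4, against 201.7, 718.3, 486.1 and 726.2 CPM in PBS 1 to 4. The 2 higher PBS libraries reached the level of the lower Ex4 libraries, while PBS 1 and PBS 3 lay below it. Its log2 fold change was 0.60 (SE 0.34, 95% interval -0.17 to 1.37, edgeR adjusted p = 0.733), or 1.52-fold, with 4 of 4 Ex4 libraries above the PBS mean. Without PBS 1 it was 0.32, and without Ex4 3, the library with the 1047 CPM, it was 0.44.

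Fosl2 encodes FRA2, a subunit of the AP-1 transcription factor, and lies on chromosome 5 from 32135801 to 32157842. Its level was 567.1, 447.7, 612.8 and 554.5 CPM in Ex4 1 to 4 and 124.0, 494.2, 347.5 and 589.9 CPM in PBS 1 to 4. The Ex4 libraries were tightly grouped, with a coefficient of variation of 12.8%, against 52.1% in PBS libraries, which held both PBS 1 at the bottom and PBS 4 near the top. Its promoter window held 0 CRE cores. The log2 fold change was 0.49 (SE 0.39, edgeR adjusted p = 0.842), with 0.18 without PBS 1 and 0.74 without PBS 4. Crem and Fosl2 followed each other across libraries, with a Pearson r of 0.98 over 8 libraries after each group's mean of log2 CPM was subtracted, and of 0.85 over 7 without PBS 1. This is a description of libraries that share depth and composition, not a test.

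Areg encodes amphiregulin, a ligand of the EGF receptor that promotes epithelial repair, and lies on chromosome 5 from 91139599 to 91148432. Its window is the one with the full CRE. The gene was low, at 13.5, 3.95, 12.7 and 12.2 CPM in Ex4 1 to 4, against 0.385, 6.27, 5.76 and 8.44 CPM in PBS 1 to 4. The counts behind these values were 305, 105, 367 and 173 in Ex4 1 to 4, against 8, 151, 116 and 150 in PBS 1 to 4, so PBS 1 rests on very few reads. Of the Ex4 libraries 3 lay above every PBS library, and Ex4 2 lay below 3 PBS libraries. The log2 fold change of 1.02 was the largest of the 10 genes and also the least precise (SE 0.68, 95% interval -0.49 to 2.54, edgeR adjusted p = 0.790). It was 0.62 without PBS 1 and 1.28 without Ex4 2.

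Mast cells, regulatory T cells, type 2 innate cells and epithelial cells are also known to make amphiregulin, although a CD45 sort should remove epithelial cells. Their markers were therefore set beside Areg, and their part in its values was not tested. Mast cell markers were highest in PBS 1, the library with the least Areg, as given above. The 12 epithelial markers summed to 247 to 429 CPM in Ex4 and 403 to 695 CPM in PBS libraries, with 12 of 12 log2 fold changes below 0, a median of -0.57 and 0 past the edgeR test. Of the 6 markers of type 2 innate and regulatory T cells 3 were high enough to test, Il5 and Il13 had 0 counts in at least 1 library, and Foxp3 was at 1.84 to 4.33 CPM in Ex4 libraries and 0.481 to 4.11 CPM in PBS libraries. The EGF receptor list, Areg included, gave 0 calls: of its 11 ligands, receptors and the sheddase Adam17, 8 were tested, with a median log2 fold change of 0.27. Adam17, which releases amphiregulin from the membrane, was at 49.1 ± 4.82 and 54.7 ± 5.97 CPM in Ex4 and PBS libraries (SD, n = 4 each; log2 fold change -0.15, edgeR adjusted p = 0.854). Egf, a ligand gene, was at 2.43 ± 1.54 and 1.52 ± 0.828 CPM in Ex4 and PBS libraries (0.67, edgeR adjusted p = 0.858).

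Sik1, the salt-inducible kinase that CREB induces and that in turn restrains the CRTC coactivators, lies on chromosome 17 from 31844250 to 31855804. It was at 6.87, 5.34, 7.04 and 9.84 CPM in Ex4 1 to 4, against 6.16, 6.56, 7.59 and 9.17 CPM in PBS 1 to 4. The PBS libraries lay within the range of the Ex4 libraries, and PBS 1 was not apart for this gene. Its log2 fold change was -0.02 (SE 0.29, edgeR adjusted p = 0.992), with a 95% interval from 0.644 to 1.51 in fold terms. Its mean did not share the direction of Nr4a1, Crem and Areg, and the difference between genes was not tested.

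Among the 10 genes, those of CREB and its coactivators, Creb1, Crtc2 and Crtc3, had log2 fold changes from -0.09 to 0.21. Creb1, which encodes CREB itself (chromosome 1, 64532645 to 64604548), was at 90.1, 98.3, 113.9 and 91.4 CPM in Ex4 1 to 4, against 70.3, 87.0, 71.6 and 112.7 CPM in PBS 1 to 4. PBS 4 came close to the top Ex4 library and the other PBS libraries lay below every Ex4 one, with a log2 fold change of 0.21 (SE 0.16, edgeR adjusted p = 0.822). With 1 library left out it ran from 0.09 without PBS 3 to 0.35 without PBS 4. Crtc2, which encodes a coactivator that binds CREB at CREs (chromosome 3, 90254163 to 90264125), was at 79.5, 63.4, 65.4 and 54.0 CPM in Ex4 1 to 4. In PBS 1 to 4 it was at 58.2, 69.8, 58.4 and 77.1 CPM, within the span of the Ex4 libraries. Its log2 fold change was -0.01 (SE 0.15, edgeR adjusted p = 0.996), and the interval of 0.799 to 1.24 in fold terms was the narrowest of the 10. Crtc3, a related coactivator gene (chromosome 7, 80586627 to 80688877), overlaps the antisense transcript Gm15880 and, on its own strand, Gm44931, and the use of strand in counting is not stated. It was at 17.6, 20.3, 15.6 and 23.4 CPM in Ex4 1 to 4, against 20.7, 22.6, 16.6 and 21.7 CPM in PBS 1 to 4. The Ex4 libraries spanned all PBS libraries, with a log2 fold change of -0.09 (SE 0.19, edgeR adjusted p = 0.950). CRTC activity is set by phosphorylation and location, which mRNA counts do not measure.

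**Figure D3:**
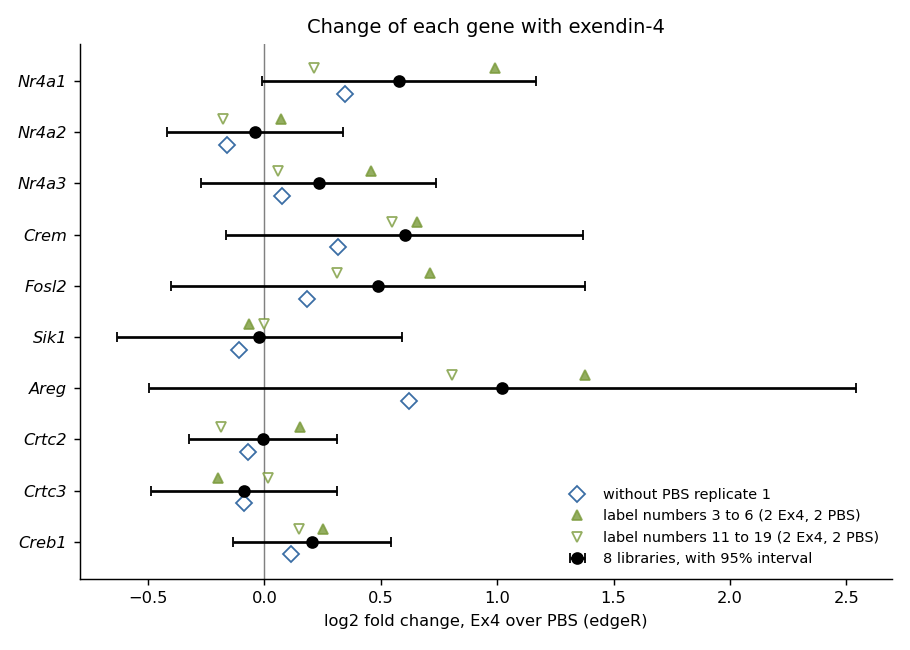
Log2 fold change of each gene, Ex4 over PBS (horizontal axis), from edgeR with its 95% interval (black), without PBS 1 (open diamonds) and within the libraries numbered 3 to 6 and 11 to 19 (triangles). All 10 intervals include 0, and without PBS 1 the values of Crem, Fosl2, Areg and Nr4a1 lie nearer to 0.

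The labels number the libraries from 3 to 19, with 2 Ex4 and 2 PBS libraries numbered 3 to 6 and as many numbered 11 to 19, and do not say what the numbers stand for. Within the lower numbers, which include PBS 1 and Ex4 1, the log2 fold change of Nr4a1 was 0.99, and within the higher numbers 0.21. For Nr4a3 these values were 0.46 and 0.06, for Fosl2 0.71 and 0.31, and for Areg 1.38 and 0.81. Crem was less divided, at 0.66 and 0.55. No value within either run passed the edgeR test.

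**Figure D4:**
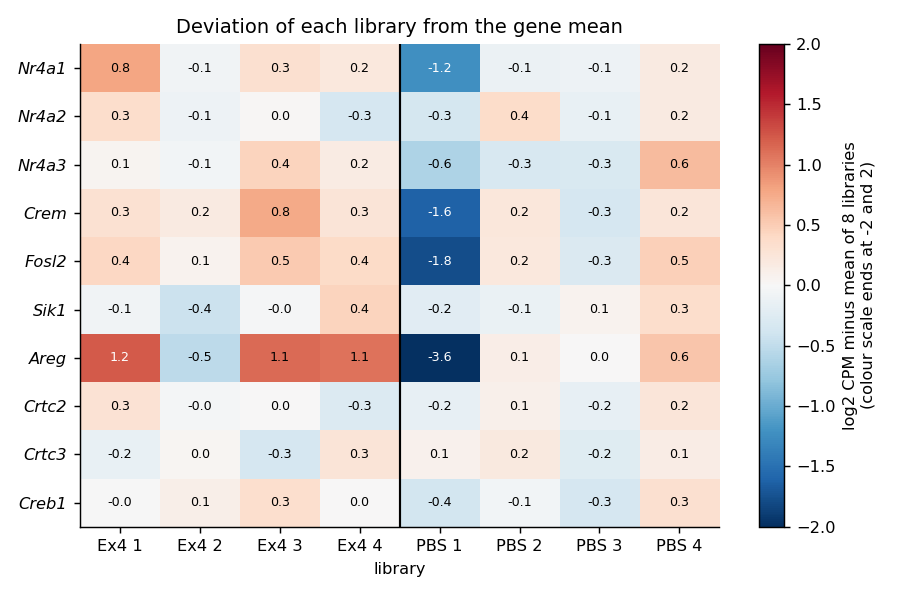
Log2 CPM of each gene (rows) in each library (columns, Ex4 left of PBS) minus the mean of the 8 libraries. PBS 1 is the lowest library for Nr4a1, Nr4a2, Nr4a3, Crem, Fosl2, Areg and Creb1, and colours end at -2 and 2.

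Per length of exon, the genes covered a wide range of levels in both groups. In Ex4 libraries Crem was highest at 137 ± 27.3 CPM per kb (SD, n = 4), followed by Nr4a1 at 79.7 ± 20.7, Fosl2 at 56.4 ± 7.22 and Nr4a2 at 50.2 ± 10.0 CPM per kb. Every Ex4 value of Crem lay above every Ex4 value of Nr4a1, whereas the ranges of Nr4a1 and Fosl2, and of Fosl2 and Nr4a2, overlapped. Next came Crtc2 at 16.0 ± 2.58, Nr4a3 at 12.2 ± 1.84, Areg at 8.72 ± 3.67 and Creb1 at 7.16 ± 0.794 CPM per kb, each overlapping the next in this row. Crtc3 at 1.95 ± 0.343 and Sik1 at 1.42 ± 0.365 CPM per kb were lowest and overlapped each other. In PBS libraries Crem was again highest at 90.4 ± 42.0 CPM per kb and Sik1 lowest at 1.44 ± 0.262, and every gene overlapped its neighbour in the order. Among the NR4A receptors the means ran in the order Nr4a1, Nr4a2 and Nr4a3 in both groups, although the ranges of Nr4a1 and Nr4a2 overlapped in each. In this order of means Creb1 stood below the target genes of the set, except Areg in PBS libraries and Sik1 in both groups. The length used was that of all annotated exons of a gene, merged: 13742 bases for Creb1, 5987 for Nr4a3 and 1215 for Areg. Before division by length, Creb1 stood above Nr4a3 and Areg. The means were 98.4, 73.0 and 10.6 CPM in Ex4 and 85.4, 62.2 and 5.21 CPM in PBS libraries.

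**Figure D5:**
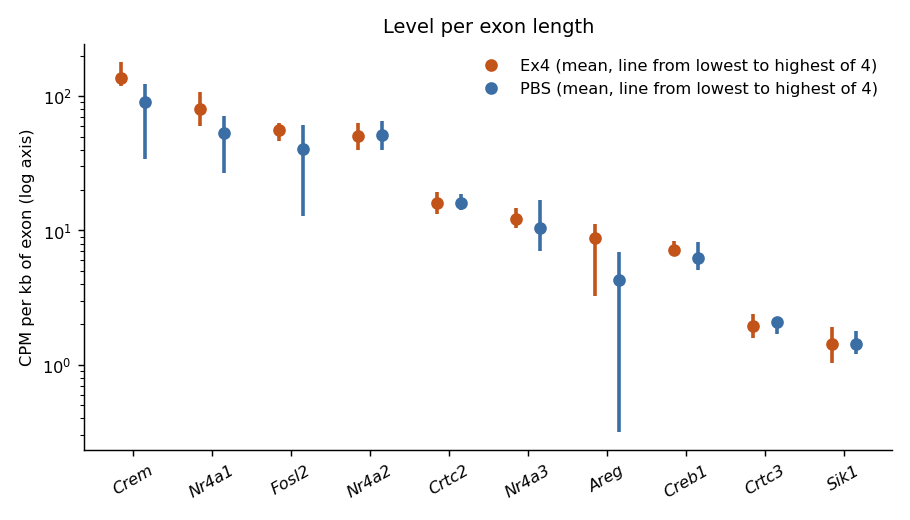
Level per kilobase of exon (vertical log axis, CPM per kb) of the 10 genes, ordered by the Ex4 mean, with points for means and lines from the lowest to the highest of 4 libraries. Crem is highest and Sik1 lowest in both groups.

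The wider pathway was taken from fixed lists. Of 15 CREB family members, coactivators and kinases 0 passed the edgeR test in either direction, with 9 above 0 and a median log2 fold change of 0.07. Of these, 5 are genes already described (Creb1, Crem, Crtc2, Crtc3 and Sik1), and the 10 others had 7 above 0 and a median of 0.09. Prkacb, which encodes a catalytic subunit of that kinase, had the smallest p in that list, at 144.2 ± 26.7 CPM in Ex4 and 99.1 ± 8.31 CPM in PBS libraries (log2 fold change 0.54, edgeR adjusted p = 0.353). Sik3, which like Sik1 phosphorylates CRTC proteins, was at 93.4 ± 13.3 and 67.6 ± 22.8 CPM in Ex4 and PBS libraries (0.47, and 0.27 without PBS 1; edgeR adjusted p = 0.654). Of 23 further cAMP and CREB target genes 22 were tested and 0 passed, with 11 above 0, 11 below and a median of -0.01. Icam1, an adhesion molecule gene, was at 246.5 ± 56.6 and 357.3 ± 40.5 CPM in Ex4 and PBS libraries (-0.54, edgeR adjusted p = 0.432). Pde4a, which encodes a cAMP-degrading phosphodiesterase, was at 30.01 ± 5.34 and 48.0 ± 17.8 CPM in Ex4 and PBS libraries (-0.68, and -0.42 without PBS 1; edgeR adjusted p = 0.469). It was the single gene of this list with no overlap between the groups, where 2.66% of all genes had every Ex4 library below every PBS library. The groups nearly touched, at 34.43 CPM in Ex4 1 and 34.44 CPM in PBS 2. Bcl2, a survival gene, was at 578.6 ± 122 and 838.5 ± 313 CPM in Ex4 and PBS libraries (-0.54, and -0.25 without PBS 1; edgeR adjusted p = 0.595). PBS 1 was the lowest of 8 libraries for 10 of the 22 tested targets, against 17.6% of all genes, and the highest for 4, against 15.9% of all genes.

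The partners of FRA2 and the genes induced by the T cell receptor gave the same count of 0. Of 13 AP-1 and ATF genes, Fosl2 included, 6 lay above 0, with a median log2 fold change of -0.07, and Batf3 (-0.41), Mafk (0.28) and Junb (0.43) had the smallest p-values. Of 13 T cell receptor early genes, Nr4a1 included, 7 lay above 0, with a median of 0.08. In that list Ier3, an immediate early response gene, was at 6.50 ± 1.08 and 3.26 ± 0.972 CPM in Ex4 and PBS libraries. Its log2 fold change was 0.99 (SE 0.34, edgeR adjusted p = 0.477), and it was the single gene of the list with no overlap between the groups, where 2.29% of all genes had every Ex4 library above every PBS library. Il2ra, which encodes the alpha chain of the interleukin 2 receptor, was at 146.5 ± 44.5 and 185.3 ± 26.1 CPM in Ex4 and PBS libraries (-0.34, edgeR adjusted p = 0.721).

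Among 14 receptor partners of NR4A and T cell genes linked to NR4A activity 13 were tested and 0 passed, with 9 above 0 and a median log2 fold change of 0.19. Havcr2, which encodes the inhibitory receptor TIM-3, was at 84.4 ± 21.4 CPM in Ex4 and 45.6 ± 20.3 CPM in PBS libraries (0.89, and 0.64 without PBS 1; edgeR adjusted p = 0.543). Tox2, a transcription factor gene of T cell exhaustion programmes, was at 9.85 ± 5.43 and 4.94 ± 2.41 CPM in Ex4 and PBS libraries (0.99, and 0.68 without PBS 1; edgeR adjusted p = 0.686). PBS 1 was the lowest library for 8 of the 13 genes, against 17.6% of all genes. Foxp3, which encodes the defining factor of regulatory T cells, had a log2 fold change of 1.01 at the low levels given above (edgeR adjusted p = 0.778).

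Within the marker lists the genes with the smallest p-values are given by their log2 fold changes, Ex4 over PBS. Of the IEL and T cell markers Cd8a, which encodes the alpha chain of CD8, was at 952.8, 1219, 998.2 and 1070 CPM in Ex4 1 to 4, against 2074, 1513, 1363 and 1450 CPM in PBS 1 to 4. All Ex4 libraries lay below all PBS libraries, as for 2.66% of all genes, with a log2 fold change of -0.59 and an edgeR adjusted p of 0.351. DESeq2 passed the gene (-0.61, DESeq2 adjusted p = 0.0424), as it did 0.533% of all genes. Cd244a was at -0.45 and Cd8b1, the beta chain gene of CD8, at 0.40. Without PBS 1 Cd8a was at -0.45, Cd244a at -0.20 and Cd8b1 at 0.28. Among epithelial markers Cdh1 was at -0.70, Epcam at -0.36 and Krt20 at -0.75, and among mast cell markers Kit was at -0.98, Mcpt1 at -0.45 and Cpa3 at -0.61. Without PBS 1 the mast cell markers Kit, Mcpt1 and Cpa3 were at -0.26, -0.23 and -0.04. The epithelial markers Cdh1, Epcam and Krt20 were then at -0.39, -0.30 and -0.92. Among myeloid markers Cd68 was at 0.56, Lyz2 at -0.77 and Csf1r at -0.53, and among B cell markers Cd79b was at -0.12 and Jchain at -0.21. Without PBS 1 Cd68 was at 0.67, Lyz2 at -0.14, Csf1r at -0.16, Cd79b at -0.18 and Jchain at 0.15. Klrg1 (0.66) and Gata3 (-0.01) stood beside Foxp3 among the markers of type 2 innate and regulatory T cells. None of these marker genes passed the edgeR test.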

How the data were processed

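Gene counts of 8 libraries, 4 Ex4 and 4 PBS, were analysed. The authors deposited raw gene counts, as whole numbers. Per the submitters' processing notes, STAR 2.7.9a, DESeq2 and the build mm10 were involved, with no role given, and the sources used here do not give the read counter, annotation or use of strand. All 8 columns were matched to mice by their descriptions, with 0 per-sample columns unused. The labels describe separate mice and state no litter or batch.

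The main test was the robust quasi-likelihood F test of edgeR 4.0.16 in R 4.3.3, after filterByExpr and TMM scaling, and p-values were adjusted by Benjamini-Hochberg over the 14691 genes kept (threshold 0.05). SEs and 95% intervals came from the fitted log2 fold change and its F statistic. CPM were TMM-scaled, and log2 CPM used a prior count of 2. Exon lengths and positions came from GENCODE M21. The test was checked on simulated counts. No pair of replicates matched within sampling noise, with a mean chi-square of 20.6 to 77.1 across genes, so each library counted as 1. Depth limits the precision of genes at a few CPM. Level alone did not set it, as the SE was 0.29 for Sik1 and 0.39 for Fosl2, at 7.27 and 545.5 CPM in Ex4 libraries.

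The 10 genes and the 12 lists were chosen with earlier results of these data known. In each list the 3 genes with the smallest p are named, except 1 that is not reported here, together with the 4 genes most like Nr4a1, Crem and Areg. Flna, Cd1d1, Il5 and Il13 were named outside this rule, after their values were seen. Alternatives were DESeq2 1.42.0, limma-voom (limma 3.58.1), other scalings and filters, a replicate block, label-number runs and libraries left out.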

Additional observations from a re-analysis of the deposited data

Results flagged for a closer look

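For every gene the lowest and highest log2 CPM of the 4 libraries of a group were compared with the next value, as a share of the group's range. This ratio passed Dixon's 95% limit in 2 of 20 groups tested, where chance passes about 1 in 20. Both concern Areg, the amphiregulin gene. Among Ex4 libraries Ex4 2 was low at 2.01 log2 CPM against 3.62 for its neighbour (ratio 0.919). Among PBS libraries PBS 1 was low at -1.07 against 2.55 (ratio 0.869). No explanation was tested.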

How the results depend on the processing

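None of the 10 genes passed an adjusted p of 0.05 in the 20 alternatives run, and Nr4a1, Nr4a3, Crem, Fosl2, Areg and Creb1 stayed above 0 in each. Their values ranged from 0.21 to 0.99 for Nr4a1, 0.04 to 0.55 for Nr4a3, 0.32 to 0.77 for Crem, 0.18 to 0.74 for Fosl2, 0.62 to 1.48 for Areg and 0.09 to 0.35 for Creb1. The log2 fold changes near 0 changed sign, and the cause was not tested. Crtc2 reached 0.001 with limma-voom, 0.009 with upper quartile scaling and 0.15 within label numbers 3 to 6. Nr4a2 was 0.073 within those numbers, and Crtc3 was 0.017 within label numbers 11 to 19. Without both PBS 2 and Ex4 3, the libraries with the fewest genes at matched depth, Nr4a2 was 0.073, Crtc2 0.015 and Crtc3 0.040. With 1 library left out, Sik1 ran from -0.211 to 0.082, Nr4a2 from -0.186 to 0.076, Crtc2 from -0.124 to 0.064 and Crtc3 from -0.208 to -0.021. Over all genes edgeR called 2, DESeq2 70, limma-voom 1, edgeR without a filter 8, and edgeR with a term for the label numbers 1. It called 0 within label numbers 3 to 6 and 1 within 11 to 19, and from 1 to 14 with 1 library left out, the 14 without PBS 2. With the replicate block it called 1 gene, and 0 of the 10. Same-numbered libraries did not deviate together (r of 0.09, -0.03, -0.24 and 0.14 for replicates 1 to 4), so the numbers were not taken as pairs. With that block the value was 0.74 for Crem and 0.61 for Nr4a1. In the lists, the number of genes called changed in 1 of 240 recomputed counts, where DESeq2 called 1 IEL marker, Cd8a, as lower. Of 240 recomputed list medians 6 moved beyond the spread between replicates. These were other cAMP targets (0.217 without PBS 4), AP-1 genes (0.116 within label numbers 3 to 6), the EGF receptor list (-0.186 without both PBS 2 and Ex4 3) and type 2 innate and regulatory T cell markers (0.067 with DESeq2, 0.029 without a filter and 0.086 within label numbers 3 to 6, where more genes were tested, against 0.658).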

Other observations

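The balance within the NR4A family was also read as a ratio of counts, which does not depend on library scaling. Nr4a1 over Nr4a2 was 1.48, 1.11, 1.33 and 1.57 in Ex4 1 to 4, against 0.589, 0.765, 1.12 and 1.08 in PBS 1 to 4. The groups met at Ex4 2 and PBS 3 and were otherwise apart, so that counts of Nr4a1 exceeded those of Nr4a2 in all Ex4 libraries and in 2 PBS libraries. The ratio of Nr4a3 to Nr4a2 was 0.263 to 0.451 in Ex4 and 0.199 to 0.437 in PBS libraries, and that of Nr4a1 to Nr4a3 was 3.11 to 5.61 in Ex4 and 2.22 to 3.87 in PBS libraries. These ratios were chosen after the values were seen and were not tested.

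The genes whose log2 CPM most resembled a member over 8 libraries, after each group's mean was subtracted, are given as a description. For Nr4a1 they were Chd7, Bend3, Atp10a and Mafg (Pearson r from 0.967 to 0.972). For Crem they were Smim3, Pigx, Riok1 and Ndufaf6 (0.987 to 0.996), and for Areg Rgs9, Dancr, Socs3 and Csrnp1 (0.988 to 0.996). Over the 7 libraries without PBS 1 the values ran from 0.888 to 0.985. The libraries share depth and composition, and the genes are the extremes of a search over the whole table.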
